A study of Mus musculus with 24 samples.

Results

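The 45 genes described here encode the machinery that copies DNA in S phase: origin licensing factors, the replicative helicase and its fork partners, polymerases with their clamp and clamp loader, enzymes of nucleotide supply, E2F transcription factors and chromatin factors that work behind the fork. They were chosen by name from a list, and all 45 symbols were found among the 38215 genes of the count table. Each symbol matched 1 gene. All 45 had enough reads to be tested in every comparison.

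DNA replication starts at origins, where the origin recognition complex, with the loaders Cdc6 and Cdt1, places the ring-shaped Mcm2 to Mcm7 helicase on DNA in G1. In S phase the helicase is switched on by Cdc45 and the GINS complex, primase and the polymerases extend the new strands on a sliding clamp of Pcna, and ribonucleotide reductase supplies deoxynucleotides. Many of these genes are transcriptional targets of E2F factors, so resting lymphocytes hold low levels of a number of their transcripts and cells that enter the cycle hold more. Natural killer (NK) cells are cytotoxic lymphocytes that are largely resting in the spleen, and IL-15 is the cytokine that sustains them and can drive their division.

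RNA was sequenced in bulk from mouse NK cells in 6 groups of 4 libraries. The groups were IL-15-treated spleen NK cells of KO and of WT genotype, NK cells taken from tumour-bearing lung of KO and of WT genotype, and naive spleen NK cells of KO and of WT genotype. KO stands for loss of FcRγ, the adaptor encoded by Fcer1g that couples several activating NK receptors to signalling. The sources used here do not give the design of the knockout allele, how IL-15 was given, for how long or at what dose, which tumour was used, how the NK cells were isolated or the animals' strain and age. They also do not say whether the 4 libraries of a group, called biological replicates, came from separate animals, so p-values measure the spread between these libraries. IL-15-treated and naive cells may therefore differ in more than the cytokine, and lung and spleen cells differ in organ as well as in tumour.

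Library totals lay between 9.68 and 32.1 M counts. Naive KO replicate 1 and lung WT replicate 1 were the shallowest at 9.68 and 9.77 M, and all others held at least 21.18 M. Mitochondrial transcripts took 0.81 to 2.82% of counts in the IL-15 KO group and between 1.76 and 2.78% in that of IL-15 WT. The share was 8.49 to 10.73% in lung KO against 3.17 to 6.14% in lung WT, and 1.18 to 9.28% in naive KO against 4.89 to 6.31% in naive WT, with naive KO replicate 1 the lowest of its group. Fcer1g averaged 5.65 CPM (counts scaled to a common library total) in IL-15 KO against 274 in IL-15 WT, 14.3 in lung KO against 595 in lung WT, and 3.77 in naive KO against 729.6 in naive WT, so the libraries separated by genotype as labelled. The 8 listed NK cell markers, which include Ncr1, Eomes and Prf1, summed to at least 7482 CPM in every library. All 85 marker genes of the 12 cell types checked were in the table. Bulk counts cannot tell fewer cells in cycle from less of each transcript per cell, here or in any result that follows.

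The 45 genes together made up 4742 ± 211 CPM in IL-15 KO and 4568 ± 150 CPM in IL-15 WT (mean ± SD, n = 4 libraries each, as throughout). In lung they made up 1608 ± 42 CPM in KO and 1823 ± 76 CPM in WT, and in naive spleen 1817 ± 112 CPM in KO and 1912 ± 72 CPM in WT. IL-15-treated libraries of both genotypes stood above all other libraries in this sum, since the lowest of them held 4439 CPM and the highest lung or naive library held 1982 CPM. The typical gene of the set stood at a median of 73.9 CPM in IL-15 KO and 69.2 in IL-15 WT, against 14.9 in lung KO, 17.2 in lung WT, 16.3 in naive KO and 15.9 in naive WT. Only 1 gene averaged under 10 CPM in IL-15 KO, and 1 in IL-15 WT, whereas 19 did so in lung KO, 15 in lung WT, 16 in naive KO and 17 in naive WT.

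**Figure D1:**
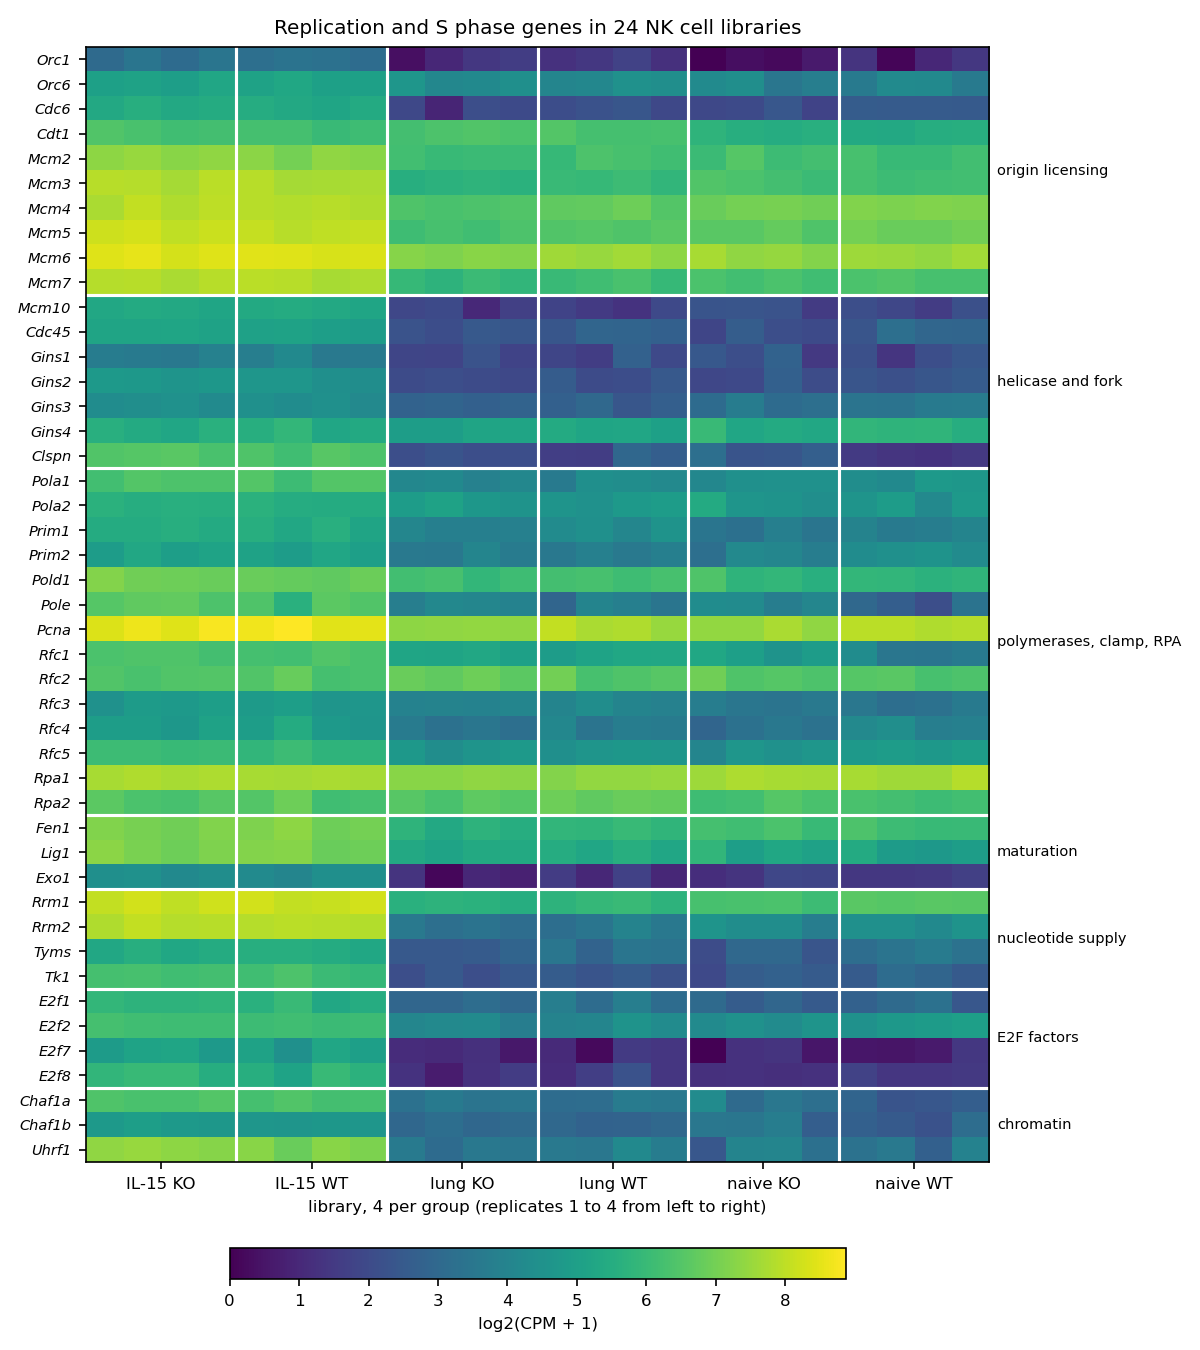
Level of each of the 45 genes (rows, grouped by role) in each of the 24 libraries (columns, 4 per group), as log2(CPM + 1) from dark (low) to yellow (high). The 8 IL-15-treated libraries at the left are brighter in nearly every row than the lung and naive libraries, while the rows of Rpa1, Rpa2, Rfc2 and Gins4 show no such step.

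Lung and naive cells were not empty of replication transcripts. Per kilobase of exon, Pcna stood highest of the 45 in every group, at 158 CPM per kb in IL-15 KO, 166 in IL-15 WT, 69.4 in lung KO, 92.2 in lung WT, 75.2 in naive KO and 99.2 in naive WT. Mcm6 came next in all 4 lung and naive groups, at 31.9 CPM per kb in lung KO, 39.3 in lung WT, 37.5 in naive KO and 39.9 in naive WT. Exo1, E2f7, E2f8, Mcm10 and Orc1 lay near the bottom of the order in lung and naive cells, each under 0.5 CPM per kb in all 4 of these groups. Within the helicase ring, whose subunits are present once each, Mcm6 was the highest and Mcm2 the lowest per kilobase in every group, and the ratio between them was 3.06 in IL-15 KO, 3.32 in IL-15 WT, 3.36 in lung KO, 3.78 in lung WT, 3.5 in naive KO and 4.09 in naive WT. This order depends on the exon length used, which was 6.96 kb for Mcm2 and 4.67 kb for Mcm6. In plain CPM, Mcm3 lay below Mcm2 in lung (50.2 against 66.0 in KO and 61.2 against 72.4 in WT). The spread between libraries was narrowest in IL-15 KO and widest in naive KO, with a median coefficient of variation over the 45 genes of 8.2% in IL-15 KO, 10.5% in IL-15 WT, 10.5% in lung KO, 15.6% in lung WT, 21.5% in naive KO and 13.5% in naive WT.

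IL-15-treated spleen NK cells held far more replication transcripts than naive ones in both genotypes. In KO, 41 of the 45 genes rose, none fell and 4 did not pass the threshold (edgeR quasi-likelihood F test, adjusted p under 0.05 over all genes tested). In WT, 41 rose and none fell, and they were the same 41 genes. Of all 13344 genes tested, 20.7% rose and 21% fell in KO, and 26.4% rose and 26% fell in WT. The median log2 change over the 45 genes was 1.57 in KO and 1.52 in WT, against −0.01 over all genes tested in each genotype. The KO and WT comparisons share no library.

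The E2F factors had a median log2 change of 4.05 in KO and 3.71 in WT, with all 4 genes higher in each. E2f8, an atypical E2F that represses E2F targets late in S phase, stood at 56.8, 61.9, 61.6 and 45.4 CPM in the IL-15 KO libraries, against 1.35, 1.39, 1.31 and 1.39 CPM in naive KO. In WT it stood at 45.6, 34.2, 62.6 and 51.3 CPM under IL-15, against 2.33, 1.65, 1.62 and 1.78 CPM in naive cells. No IL-15-treated library came near a naive one, and the log2 change was 5.3 ± 0.2 (± standard error) in KO and 4.62 ± 0.19 in WT, with an edgeR adjusted p of 8.27e-13 in KO and 1.80e-12 in WT. E2f7, its partner repressor, rose by 4.98 ± 0.48 in KO and 5.16 ± 0.48 in WT on the log2 scale. The larger error of E2f7 goes with naive levels of 0 to 1.52 CPM in KO and 0.412 to 1.68 CPM in WT. E2f2, an activator E2F, had the smallest change of the 4, at 68.6 to 76.1 CPM in IL-15 KO against 17.9 to 22.8 CPM in naive KO, and 65.6 to 69.5 CPM in IL-15 WT against 21.4 to 31.0 CPM in naive WT. Its log2 change was 1.75 in KO and 1.26 in WT.

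Among the 10 licensing genes all rose in both genotypes, with a median log2 change of 1.31 in KO and 1.09 in WT. Orc1 and Cdc6 changed most in both genotypes. Cdc6, which loads the helicase, stood at 39.4, 45.9, 39.8 and 43.0 CPM in IL-15 KO against 2.8, 2.96, 4.3 and 2.42 CPM in naive KO, and at 43.6, 40.2, 36.2 and 42.2 CPM in IL-15 WT against 4.97, 4.8, 4.89 and 4.75 CPM in naive WT. The groups were far apart, and the log2 change of Cdc6 was 3.67 ± 0.17 in KO and 2.98 ± 0.16 in WT. Orc1, the largest subunit of the origin recognition complex, rose by 4.88 ± 0.62 in KO and 2.91 ± 0.53 in WT, with naive levels close to 0 (0 to 0.556 CPM in naive KO and 0.075 to 1.68 CPM in naive WT).

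Mcm6 was the most abundant ring subunit per kilobase. It stood at 344, 371, 313 and 349 CPM in IL-15 KO against 209, 167, 176 and 149 CPM in naive KO. In WT it stood at 353, 346, 322 and 332 CPM under IL-15, against 190.3, 186, 171 and 198 CPM in naive cells. Mcm6 was thus well expressed before treatment and rose less than Cdc6 or Orc1. The 6 subunits changed by 0.87 (Mcm4) to 1.55 (Mcm7) log2 units in KO and by 0.63 (Mcm4) to 1.52 (Mcm3) in WT. Cdt1, the loader that acts with Cdc6 and whose protein is destroyed once S phase begins, had the smallest change of the licensing genes, 0.62 ± 0.11 in KO and 0.63 ± 0.11 in WT.

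At the fork, 6 of 7 genes rose in each genotype, with a median of 2.71 in KO and 2.21 in WT. Clspn, which encodes claspin, the adaptor of the replication checkpoint, stood at 87.7, 91.4, 97.0 and 79.6 CPM in IL-15 KO against 8.48, 3.96, 4.22 and 5.44 CPM in naive KO. In WT it stood at 85.5, 69.1, 94.5 and 83.0 CPM under IL-15, against 1.83, 1.57, 1.44 and 1.78 CPM in naive cells. IL-15-treated levels overlapped between the genotypes, but naive KO libraries all stood above naive WT libraries, so the change was 15.8-fold in KO (log2 3.99 ± 0.19) and 47.0-fold in WT (log2 5.55 ± 0.2). Mcm10, which helps to fire origins, rose by 3.44 ± 0.21 in KO and 3.71 ± 0.21 in WT. Among the GINS subunits, Gins1, Gins2 and Gins3 rose in both genotypes, while Gins4 did not pass. Gins4 stood at 47.0, 42.1, 36.6 and 48.5 CPM in IL-15 KO against 64.1, 36.8, 41.8 and 38.4 CPM in naive KO, and at 46.3, 57.2, 37.3 and 40.9 CPM in IL-15 WT against 55.7, 54.0, 55.3 and 45.4 CPM in naive WT. These groups overlapped, and the log2 difference was −0.12 (95% interval −0.47 to 0.24) in KO and −0.29 (−0.65 to 0.06) in WT.

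The 14 genes of polymerases, primase, clamp, clamp loader and the single-strand binding protein RPA had the lowest median, 1.22 in KO and 0.9 in WT, and 11 of the 14 rose in each genotype. Pcna, the sliding clamp, stood at 333, 401, 343 and 444 CPM in IL-15 KO against 170, 169.9, 214 and 168 CPM in naive KO. In WT it stood at 409, 466, 349.5 and 365 CPM under IL-15, against 245, 249, 226 and 232 CPM in naive cells. Every treated library stood above every naive one, at a log2 change of 1.0 ± 0.13 in KO and 0.66 ± 0.12 in WT. Pole, the catalytic subunit of the leading-strand polymerase, changed most in this group, by 2.48 ± 0.24 in KO and 3.57 ± 0.26 in WT. The smallest change among those that passed was that of Pola2, a subunit of the primase-polymerase complex, in KO (0.75 ± 0.19, and 0.44 without a call when adjusted for exon length and GC content) and that of Prim2, the large primase subunit, in WT (0.61 ± 0.17).

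Rpa1, the large subunit of RPA, did not pass in either genotype. It stood at 209, 223, 208 and 219 CPM in IL-15 KO against 189, 217, 208 and 205 CPM in naive KO, and at 210.3, 204, 214 and 203 CPM in IL-15 WT against 209, 193, 195 and 232 CPM in naive WT. The groups overlapped, and the 95% interval of the log2 difference ran from −0.19 to 0.18 in KO and from −0.27 to 0.1 in WT. Rpa2, its middle subunit, and Rfc2, a small subunit of the clamp loader, also did not pass, with log2 differences of 0.1 and −0.21 in KO and 0.2 and −0.07 in WT. With the length and GC adjustment, Rpa1 (−0.23 in KO and −0.36 in WT) and Rfc2 (−0.47 and −0.44) passed as lower under IL-15. RPA also acts in DNA repair outside S phase.

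Ribonucleotide reductase and the thymidylate enzymes rose together, 4 of 4 in each genotype, with a median of 3.25 in KO and 2.76 in WT. Rrm2, the subunit of ribonucleotide reductase whose level follows S phase, stood at 226, 266, 237 and 243 CPM in IL-15 KO against 23.1, 19.5, 19.5 and 12.4 CPM in naive KO. In WT it stood at 233, 244, 243 and 231 CPM under IL-15, against 20.8, 20.8, 17.3 and 22.3 CPM in naive cells. The groups lay far apart, at log2 changes of 3.64 ± 0.15 in KO and 3.46 ± 0.15 in WT. Rrm1, the partner subunit, was already at 67.3 to 81.1 CPM in naive KO and 92.1 to 96.7 CPM in naive WT, and rose by 1.82 ± 0.1 in KO and 1.52 ± 0.1 in WT. Tk1, the thymidine kinase of dividing cells, rose by 3.88 ± 0.2 in KO and 3.45 ± 0.19 in WT.

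All 3 maturation genes and all 3 chromatin genes rose in both genotypes. Exo1, an exonuclease of mismatch repair and end resection, rose by 3.18 ± 0.23 in KO and 3.22 ± 0.23 in WT, and Lig1, which seals Okazaki fragments, by 1.76 and 2.0. Fen1, the flap nuclease that trims those fragments, stood at 122 to 144 CPM in IL-15 KO against 62.3 to 81.5 CPM in naive KO, and at 118 to 165 CPM in IL-15 WT against 61.8 to 82.4 CPM in naive WT. It had the smallest change of the 3, 0.84 in KO and 0.93 in WT. Uhrf1, which brings the maintenance DNA methyltransferase to new DNA, stood at 153 to 178 CPM in IL-15 KO against 4.34 to 15.3 CPM in naive KO, and at 114 to 157 CPM in IL-15 WT against 5.59 to 14.4 CPM in naive WT. Chaf1a and Chaf1b, subunits of a histone chaperone that follows the fork, rose by 2.85 and 1.43 in KO and by 3.89 and 2.04 in WT.

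**Figure D2:**
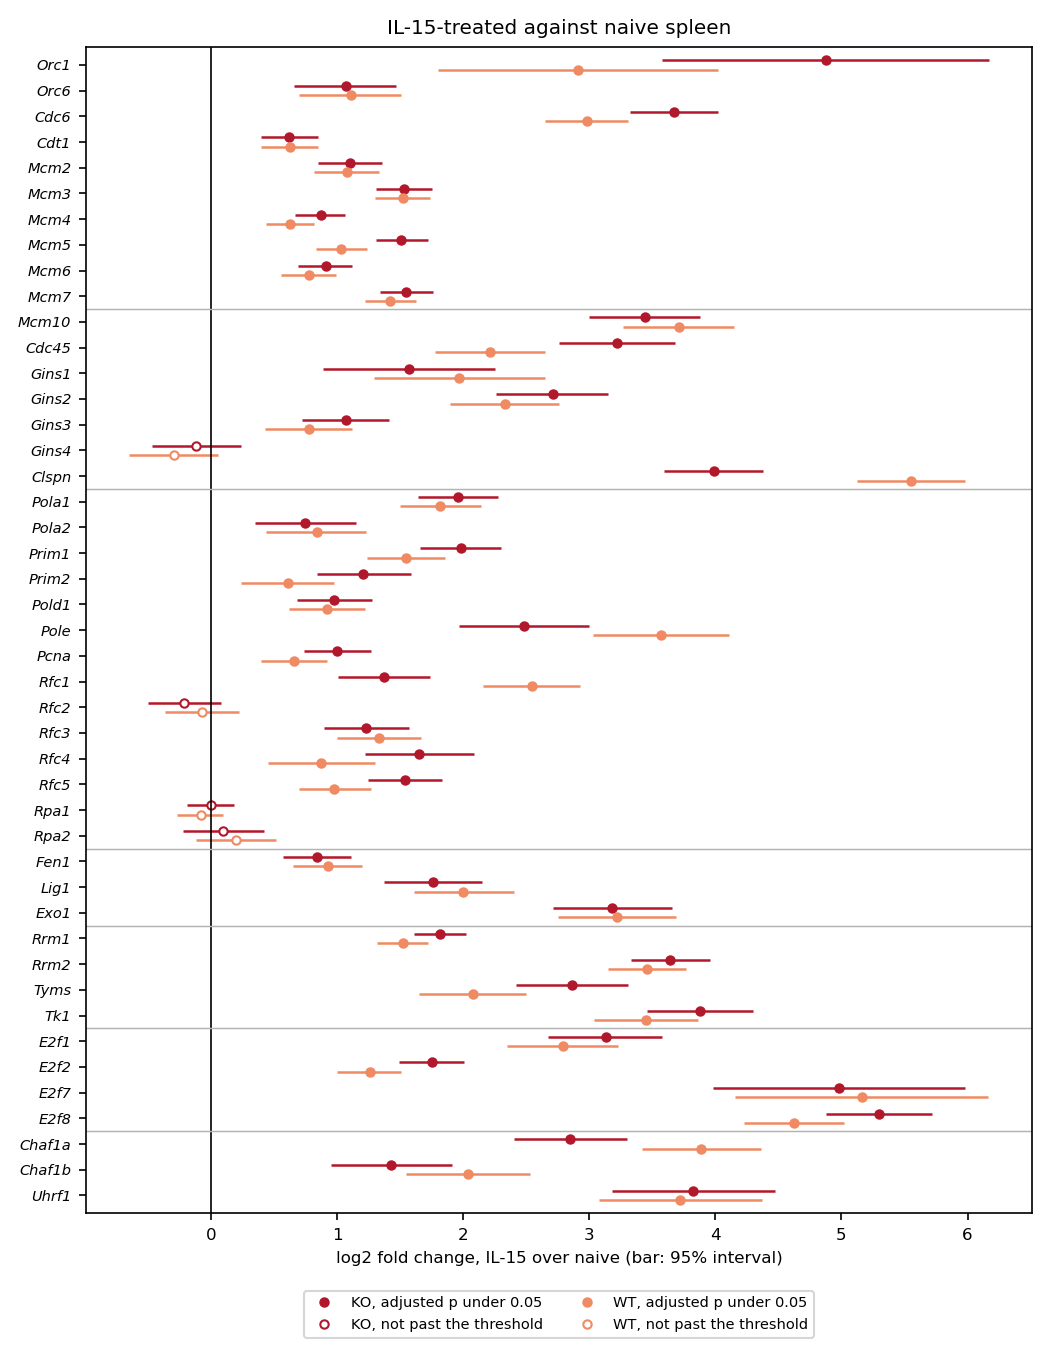
Log2 fold change of IL-15-treated over naive spleen NK cells for each of the 45 genes, KO above WT in each row, with 95% intervals from edgeR; filled points passed an adjusted p of 0.05. All points but those of Gins4, Rfc2, Rpa1 and Rpa2 are filled and lie right of 0, from 0.62 (Cdt1) to 5.3 (E2f8) in KO and from 0.61 (Prim2) to 5.55 (Clspn) in WT.

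In a wider list of 72 other replication and S phase genes, 51 rose and 5 fell in KO and 49 rose and 10 fell in WT, with a median log2 change of 1.16 and 1.04. Pif1, a DNA helicase, and Ticrr, which helps to load Cdc45, changed most in both genotypes (5.06 and 3.96 in KO, 4.47 and 5.03 in WT). Those that fell in both genotypes were Tk2, Rnaseh2c, Samhd1, Rrm2b and Chtf8. Tk2, Rrm2b and Samhd1 serve the nucleotide pool of non-dividing cells: a mitochondrial thymidine kinase, the reductase subunit used outside S phase and a deoxynucleotide hydrolase. In KO their log2 changes were −0.89, −0.68 and −0.68, and in WT −0.76, −1.02 and −0.72. The summed NK cell markers also differed, at 7482 to 8642 CPM in IL-15 KO against 12079 to 14165 in naive KO, and 7509 to 8888 in IL-15 WT against 13304 to 14566 in naive WT. Among them Gzmb was higher under IL-15, with means of 1759 against 446 CPM in KO and 1869.6 against 616 CPM in WT. The others had lower means under IL-15 in both genotypes. The mitochondrial share given above was also lower in IL-15 WT than in naive WT, without overlap; the part of either in the result was not tested.

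The stretches upstream of some of these genes are shown because E2F factors are both members of the set and known regulators of it. The letters TTTCCCGC, TTTCGCGC, TTTGCCGC and TTTGGCGC, spelled from the E2F consensus, were searched on both strands of 300-base windows around RefSeq transcript starts (250 bases before to 50 after, GRCm38.p6), overlapping matches included. Windows were at hand for 37 of the 45 genes, and 16 of the 37 (43.2%) held a match, against 704 of all 27025 genes with a window (2.6%). Those 27025 include genes with too few reads to be tested here, whereas all members were tested. The share among tested genes alone was not computed. Matches were found for 7 of 9 licensing genes, 2 of 4 fork genes, 2 of 4 E2F factors, 3 of 11 polymerase and clamp genes, 1 of 2 maturation genes, 1 of 3 chromatin genes and 0 of 4 nucleotide genes. Some windows lie wholly inside the gene as the count table places it, so bases before that gene's outermost start were not searched. Those of E2f1 (no match), Cdc6 and Mcm7 (each with a match) are examples. CCAAT, searched the same way, was in 25 of the 37 windows (67.6%), against 41.06% of all genes. No window was at hand for Gins1, Gins2, Gins4, Mcm4, Pole, Prim2, Rfc2 and Exo1. E2f8, Tk1, Rrm2 and Mcm10 held no match and rose under IL-15 (log2 5.3, 3.88, 3.64 and 3.44 in KO), as did the genes with a match. Rpa1 held no match and did not pass under IL-15, except as lower with the length and GC adjustment. The 250 bases before the start of Mcm5 (chr8:75109259-75109508, plus strand), Mcm6 (chr1:128359706-128359955, minus strand), Gins3 (chr8:95633309-95633558, plus strand), Pola1 (chrX:93632156-93632405, minus strand), E2f7 (chr10:110745189-110745438, plus strand) and Rpa1 (chr11:75348384-75348633, minus strand) follow, 5′ to 3′ on the gene's strand, with E2F matches in capitals.
Mcm5: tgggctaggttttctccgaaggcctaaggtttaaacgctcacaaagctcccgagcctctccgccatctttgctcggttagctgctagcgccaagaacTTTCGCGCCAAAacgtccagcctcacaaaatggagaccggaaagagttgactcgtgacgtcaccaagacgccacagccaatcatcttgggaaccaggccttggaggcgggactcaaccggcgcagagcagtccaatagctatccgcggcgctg
Mcm6: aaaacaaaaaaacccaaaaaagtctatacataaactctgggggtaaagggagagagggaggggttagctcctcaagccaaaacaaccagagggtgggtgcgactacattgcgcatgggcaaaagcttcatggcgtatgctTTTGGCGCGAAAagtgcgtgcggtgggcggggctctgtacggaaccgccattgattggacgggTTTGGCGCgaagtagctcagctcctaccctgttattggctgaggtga
Gins3: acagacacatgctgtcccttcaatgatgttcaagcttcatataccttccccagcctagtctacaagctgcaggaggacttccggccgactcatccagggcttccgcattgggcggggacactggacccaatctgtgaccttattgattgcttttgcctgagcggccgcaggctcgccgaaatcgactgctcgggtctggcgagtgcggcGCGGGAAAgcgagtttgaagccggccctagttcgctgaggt
Pola1: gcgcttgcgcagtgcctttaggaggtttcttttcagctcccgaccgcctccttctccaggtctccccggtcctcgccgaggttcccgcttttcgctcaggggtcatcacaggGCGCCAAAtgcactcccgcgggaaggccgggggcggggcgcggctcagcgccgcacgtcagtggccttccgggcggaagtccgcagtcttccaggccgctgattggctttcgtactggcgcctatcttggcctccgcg
E2f7: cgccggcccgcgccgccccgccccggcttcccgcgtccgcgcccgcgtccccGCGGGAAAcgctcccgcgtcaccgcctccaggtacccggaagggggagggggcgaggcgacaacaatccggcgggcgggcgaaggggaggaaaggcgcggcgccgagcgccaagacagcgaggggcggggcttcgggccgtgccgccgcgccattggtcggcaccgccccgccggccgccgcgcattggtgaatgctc
Rpa1: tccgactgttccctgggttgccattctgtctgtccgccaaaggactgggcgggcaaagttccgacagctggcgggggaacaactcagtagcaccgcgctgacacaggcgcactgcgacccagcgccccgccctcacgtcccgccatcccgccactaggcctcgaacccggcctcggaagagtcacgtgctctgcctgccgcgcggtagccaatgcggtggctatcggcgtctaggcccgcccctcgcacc
The matches in Mcm6 begin 110, 106 and 47 bases before the start and those in Mcm5 153 and 149 bases before it; in both genes the pair that overlaps reads on opposite strands. E2f7 has its match 198 bases before the start, Pola1 138 and Gins3 41. A match is a run of letters, not a shown binding site, and factor binding was not measured.

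IL-15-treated spleen cells were also higher than cells from tumour-bearing lung. In KO, 42 of the 45 genes were higher and 0 lower by edgeR (1 lower by DESeq2 and 1 at an unadjusted p under 0.05), and in WT 41 were higher and 1 lower. Of all 14275 genes tested, 20.5% were higher and 23.3% lower in KO, and 20.6% higher and 23.8% lower in WT. At an unadjusted p under 0.05, 3777 of them were lower in KO. The median log2 difference was 1.94 in KO and 1.81 in WT, against −0.03 and −0.02 over all genes. The 4 largest in each genotype were those of E2f8 (5.39 in KO and 4.42 in WT), E2f7 (4.93 and 4.69), Rrm2 (4.72 and 4.43) and Clspn (4.64 and 4.29). Cdt1 was the exception among licensing genes. It stood at 86.8, 78.6, 69.9 and 73.2 CPM in IL-15 KO against 73.3, 82.3, 88.0 and 80.4 CPM in lung KO, and at 75.1, 74.4, 63.2 and 67.9 CPM in IL-15 WT against 88.4, 75.6, 75.2 and 77.4 CPM in lung WT. Those ranges overlapped in KO and did not in WT, where the log2 difference of −0.17 had an edgeR adjusted p of 0.17. Rfc2 and, in KO, Rpa2 did not pass either. Rpa2 was lower in IL-15 WT than in lung WT by a log2 change of −0.34 (edgeR adjusted p 0.0398), a call lost in 9 of 15 alternatives, leaving out lung WT replicate 1 among them. Gins4 was higher in KO (0.44) and did not pass in WT (0.31). Of the 72 other genes, 54 were higher and 4 lower in KO, and 53 and 5 in WT.

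Cells from tumour-bearing lung did not show the rise seen with IL-15. Against naive spleen, 4 of the 45 genes were higher and 12 lower in KO, and 10 higher and 10 lower in WT. Of all 14275 genes tested, 24.3% were higher and 18.1% lower in KO, and 29.2% higher and 20% lower in WT, so the members' counts of higher genes lie under these shares and the counts of lower genes over 18.1% and near 20%. The median log2 difference of the 45 was −0.15 in KO and −0.08 in WT, against 0.05 and 0.08 over all genes. This comparison uses the same naive libraries as the one with IL-15. Lung and spleen also differ in organ, which cannot be told apart from tumour here.

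Ribonucleotide reductase was lower in lung. Rrm2 stood at 10.9, 8.54, 9.39 and 7.96 CPM in lung KO against 23.1, 19.5, 19.5 and 12.4 CPM in naive KO, and at 8.11, 9.94, 14.5 and 10.8 CPM in lung WT against 20.8, 20.8, 17.3 and 22.3 CPM in naive WT. The groups did not overlap in either genotype, and the log2 difference was −1.01 ± 0.16 in KO and −0.89 ± 0.16 in WT, with edgeR adjusted p of 1.82e-05 and 5.31e-05. Rrm1 was lower by −0.64 and −0.74. Other genes lower in both genotypes were Mcm4 (−0.58 in KO and −0.46 in WT), Mcm5 (−0.36 and −0.41), Gins3 (−0.59 and −0.95), Gins4 (−0.49 and −0.52), Rpa1 (−0.36 and −0.31) and E2f2 (−0.35 and −0.57). The call of E2f2 in KO was lost in 7 of 15 alternatives, among them the omission of lung KO replicate 1 or 4 or of naive KO replicate 2 or 4. Gins3 in KO lost its call in 2, the omission of naive KO replicate 2 among them. Gins4 in KO lost its call in 1, the omission of the shallow naive KO replicate 1. In KO, Mcm3, Mcm7, Fen1 and Exo1 were also lower, with the largest estimate for Exo1 at −1.27 ± 0.39. Exo1 stood at only 0.121 to 1.52 CPM in lung KO against 1.25 to 2.66 CPM in naive KO, which overlap. Its call was lost in a fit of the compared groups alone. In WT, Prim2 (−0.71) and Tk1 (−0.47) were also lower, the call of Tk1 being lost in 5 of 15 alternatives, 4 of them omissions of 1 library.

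Cdt1 went the other way. It stood at 73.3 to 88.0 CPM in lung KO against 43.7 to 53.9 CPM in naive KO, and at 75.2 to 88.4 CPM in lung WT against 39.8 to 46.3 CPM in naive WT. All lung libraries were above all naive ones, at log2 differences of 0.76 ± 0.1 in KO and 0.88 ± 0.1 in WT. Prim1, the small primase subunit (0.42 and 0.53), and Rfc3, a clamp-loader subunit (0.44 and 0.69), were the other genes higher in both genotypes; in KO the call of Prim1 was lost in 4 of 15 alternatives and that of Rfc3 in 3, naive KO replicate 2 left out among them for both. Orc1 passed in KO at 2.15 ± 0.64, with 0.279 to 2.04 CPM in lung KO against 0 to 0.556 CPM in naive KO, which overlap. In WT the higher genes included Rfc1 (1.47 ± 0.17), Clspn (1.35 ± 0.28), Chaf1a (0.97), Pole (0.84), Rpa2 (0.63), E2f1 (0.63) and Pold1 (0.42). Fitted on the compared groups alone, KO had 1 gene higher. An adjustment for exon length and GC content moved these counts to 4 higher and 23 lower in KO and 6 higher and 19 lower in WT, and turned Pold1 in WT to −0.63 and E2f1 in WT to −0.1. Under it Cdt1 shrank to 0.24 in KO and 0.21 in WT, where it no longer passed, and Chaf1a (0.24) and Pole (0.12) in WT lost their calls. That adjustment also moved the median of all genes to −0.19 in KO and −0.14 in WT.

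**Figure D3:**
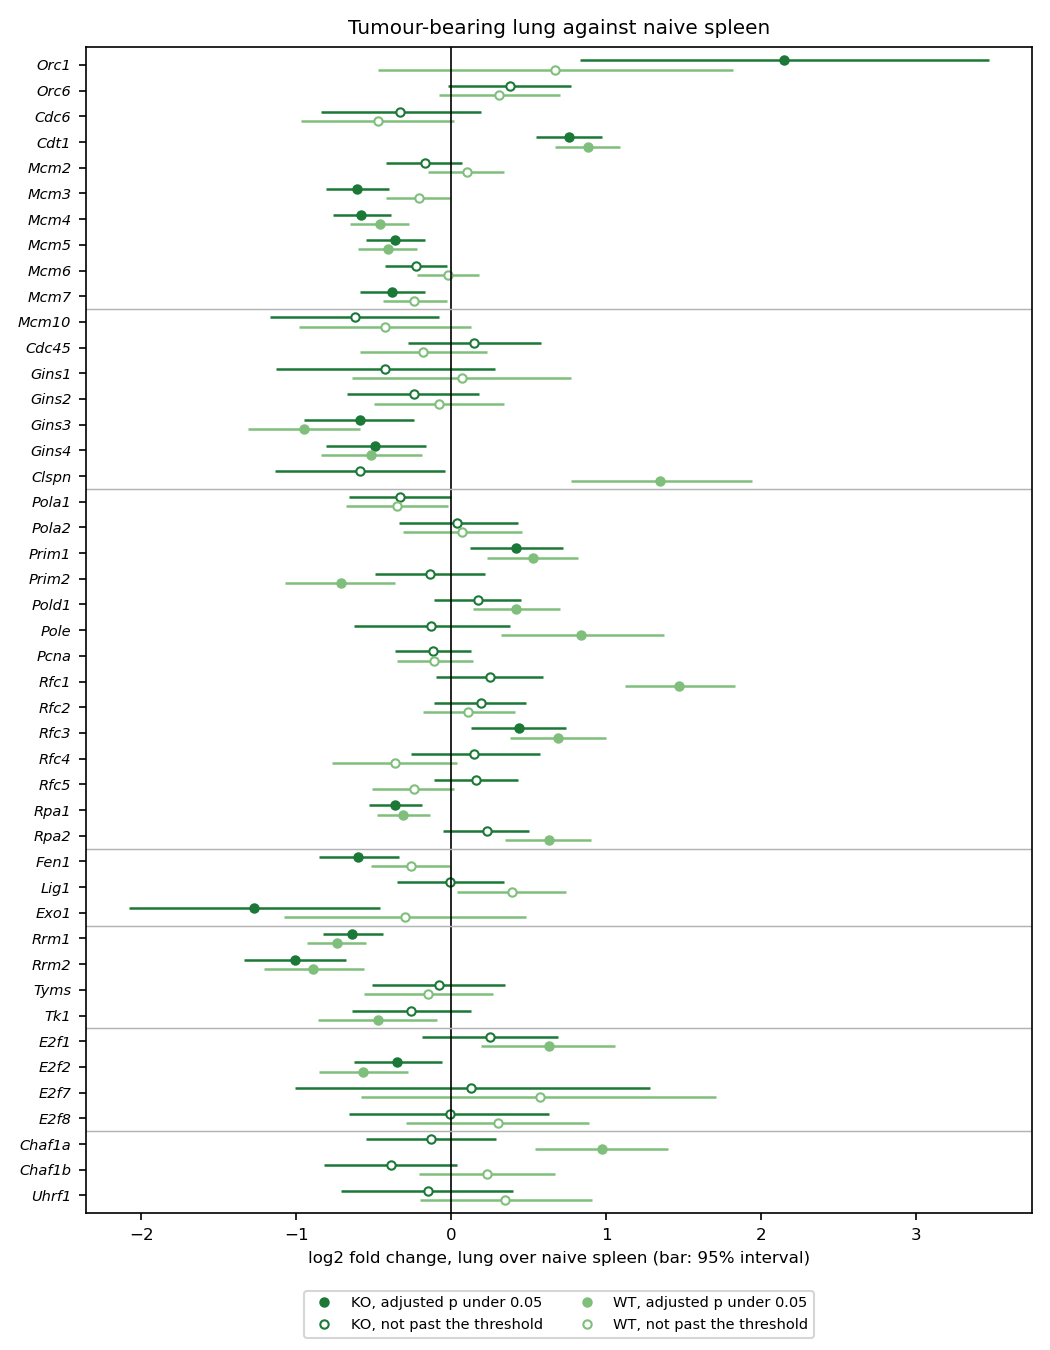
Log2 fold change of NK cells from tumour-bearing lung over naive spleen for each of the 45 genes, KO above WT in each row, with 95% intervals from edgeR; filled points passed an adjusted p of 0.05. Most points lie within 1 log2 unit of 0; Rrm2 lies left of 0 in both genotypes and Cdt1 right of it.

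Mki67, a marker of cycling cells outside the set, averaged 23.2 ± 2.66 CPM in lung KO against 4.88 ± 2.24 CPM in naive KO, and 31.4 ± 13.7 CPM in lung WT against 2.19 ± 1.78 CPM in naive WT. It was thus higher in lung by 2.3 ± 0.42 log2 units in KO and 3.85 ± 0.45 in WT (edgeR adjusted p 0.000102 and 1.30e-07), while IL-15-treated cells held 640.1 ± 239 CPM in KO and 646 ± 141 CPM in WT. Of the 72 other replication genes, 11 were higher and 19 lower in lung KO, and 13 higher and 19 lower in lung WT. Recql4, a helicase, and Tonsl, which guards stalled forks, were higher in both genotypes (1.67 and 1.16 in KO, 2.5 and 1.72 in WT), as was Dbf4, the activator of the kinase that fires origins (1.66 and 1.33). Rpa3, the small RPA subunit, was lower in both (−0.95 and −1.05). Markers of other cells were also higher in lung. The 8 monocyte and macrophage markers summed to 151 to 619 CPM in lung KO and 57.1 to 131 CPM in lung WT, against 7.9 to 16.9 CPM in naive KO and 6.93 to 11.4 CPM in naive WT. Most of the lung sum was Lyz2, with means of 313 CPM in lung KO and 94.9 CPM in lung WT. Lung epithelium markers summed to 33.2 to 416 CPM in lung KO against 9.88 to 58.7 CPM in naive KO, and 22.4 to 89.9 CPM in lung WT against 9.33 to 25.7 CPM in naive WT. Those ranges overlap. Scgb1a1 averaged 139 CPM in lung KO, while Krt8, Krt18, Cdh1 and Epcam had lower means there than in naive KO. The 6 melanocytic markers summed to 6.47 to 52.7 CPM in lung KO and 0.231 to 18.3 CPM in lung WT, and Tyr, Tyrp1, Dct and Mlana were at 0 counts in naive libraries of both genotypes. Their part in the lung differences was not tested.

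In IL-15-treated cells the replication genes of KO stood near their WT levels. By edgeR 0 of the 45 genes rose and 0 fell in IL-15 KO against IL-15 WT, 0 had an unadjusted p under 0.05, and DESeq2 also called 0. Of all 13344 genes tested, 0.0824% were higher and 0.0525% lower. At an unadjusted p under 0.05, 112 of them were higher and 99 lower. The estimates ran from −0.16 to 0.25 log2 units. The 95% interval lay within 1 log2 unit of 0 for 44 of the 45 genes and within 0.5 for 35, which bounds the size of an effect these libraries could hide. The smallest p belonged to Mcm5, at 289, 316, 257 and 287 CPM in IL-15 KO against 269.7, 243, 258 and 269 CPM in IL-15 WT; the ranges overlapped.

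In tumour-bearing lung, too, 0 of the 45 genes passed, by edgeR or by DESeq2, and 0.305% of the 13129 genes tested were higher and 0.32% lower. The estimates leaned to lower values in KO: 33 of 45 were negative, with a median of −0.21 log2 units against 0.0 over all genes, and 10 were lower and 0 higher in KO at an unadjusted p under 0.05. At that unadjusted threshold 796 of all 13129 genes tested were lower and 727 higher. Tyms, thymidylate synthase, stood at 4.59, 4.63, 4.91 and 6.33 CPM in lung KO against 10.1, 6.06, 9.87 and 9.27 CPM in lung WT. The highest lung KO library overlapped the lowest lung WT library, and the log2 difference was −0.78 ± 0.22 (edgeR adjusted p 0.201). Pcna stood at 164, 166, 169.7 and 167 CPM in lung KO against 265, 215, 223 and 181 CPM in lung WT, which do not overlap, at −0.41 ± 0.12 (adjusted p 0.203 by edgeR). Prim1 differed by −0.47 ± 0.15 (adjusted p 0.252 by edgeR). The monocyte and macrophage markers and the mitochondrial share (8.49 to 10.73% in lung KO against 3.17 to 6.14% in lung WT, without overlap) differed between these groups, and their part was not tested.

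In naive spleen, 16 of the 45 genes differed between the genotypes. By edgeR, 5 were higher and 11 lower in naive KO than in naive WT, and 11.1% of all 13344 genes tested were higher and 9.22% lower, so the share of members higher was equal to that of all genes and the share lower was larger. The median log2 difference of the 45 was −0.11, against 0.0 over all genes. Without the shallow naive KO replicate 1 the counts were 4 and 9.

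The genes higher in naive KO were Clspn, Pole, Rfc1, Chaf1a and Chaf1b. Clspn, with the values given above, was 3.15-fold higher (log2 1.66 ± 0.2, edgeR adjusted p 4.56e-05). Rfc1, the large subunit of the clamp loader, stood at 37.9, 31.1, 22.3 and 28.6 CPM in naive KO against 19.1, 10.1, 9.87 and 11.6 CPM in naive WT. The groups did not overlap, and the difference was 1.21 ± 0.18 (edgeR adjusted p 0.000261). Pole stood at 18.8, 18.2, 12.6 and 15.7 CPM in naive KO against 6.95, 5.29, 3.41 and 9.49 CPM in naive WT, at 1.33 ± 0.25, and again the groups were apart. Chaf1a stood at 18.6, 7.47, 10.4 and 8.33 CPM in naive KO against 6.22, 3.97, 4.28 and 5.27 CPM in naive WT, with naive KO replicate 1 the highest of all, at 1.11 ± 0.22. These calls for Clspn, Rfc1, Pole and Chaf1a held in all 16 alternatives tried, including those without naive KO replicate 1, whereas Chaf1b (0.76 ± 0.23) lost its call in 8, that one among them. Exon length, counted over all annotated exons of a gene, had a median of 7.19 kb (4.68 to 11.16) among the 5 genes. The median was 4.67 kb (1.53 to 11.01) among the 11 lower genes and 4.26 kb (1.35 to 9.01) among the 29 others, so the ranges overlapped. With a length and GC adjustment the 5 genes still passed. The lower genes numbered 11 there too but were not the same 11, as Pcna and Rfc4 (−0.41) no longer passed while Pold1 (−0.36) and E2f8 (−0.58) did.

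Genes lower in naive KO came from every role but maturation and chromatin. Tyms stood at 3.18, 7.04, 6.92 and 4.05 CPM in naive KO against 8.08, 9.75, 12.0 and 9.06 CPM in naive WT, a difference of −0.87 ± 0.21 (edgeR adjusted p 0.00694) with no overlap. Cdc45, the helicase activator, stood at 2.6, 5.2, 3.33 and 2.94 CPM in naive KO against 4.08, 8.43, 6.68 and 6.46 CPM in naive WT, which overlap, at −0.87 ± 0.21. Pcna, with the values given above, was lower by −0.42 ± 0.12, all 4 naive KO libraries lying under all naive WT libraries, but its estimate shrank to −0.11 with the length and GC adjustment. Rfc4 (−0.86), Cdc6 (−0.65), Prim2 (−0.59), E2f2 (−0.42), Rfc5 (−0.39), Mcm5 (−0.34) and Rrm1 (−0.34) were also lower. Each of the 11 calls was lost in at least 1 of 16 alternatives. Rfc5 lost its call in 8, of which 6 were omissions of 1 library, and Pcna, Prim2 and E2f2 lost theirs in 4 each, 3 of them such omissions. Rfc4 lost its call under the length and GC adjustment only. Orc1 had the largest estimate, −1.95 ± 0.62, at 0, 0.269, 0.169 and 0.556 CPM in naive KO against 1.52, 0.075, 1.0 and 1.68 CPM in naive WT, and its call was lost without naive KO replicate 1 and in 7 other alternatives. Fitted on naive libraries alone, 4 genes were higher and 2 lower, and without naive KO replicate 4 the count of lower genes was 7.

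**Figure D4:**
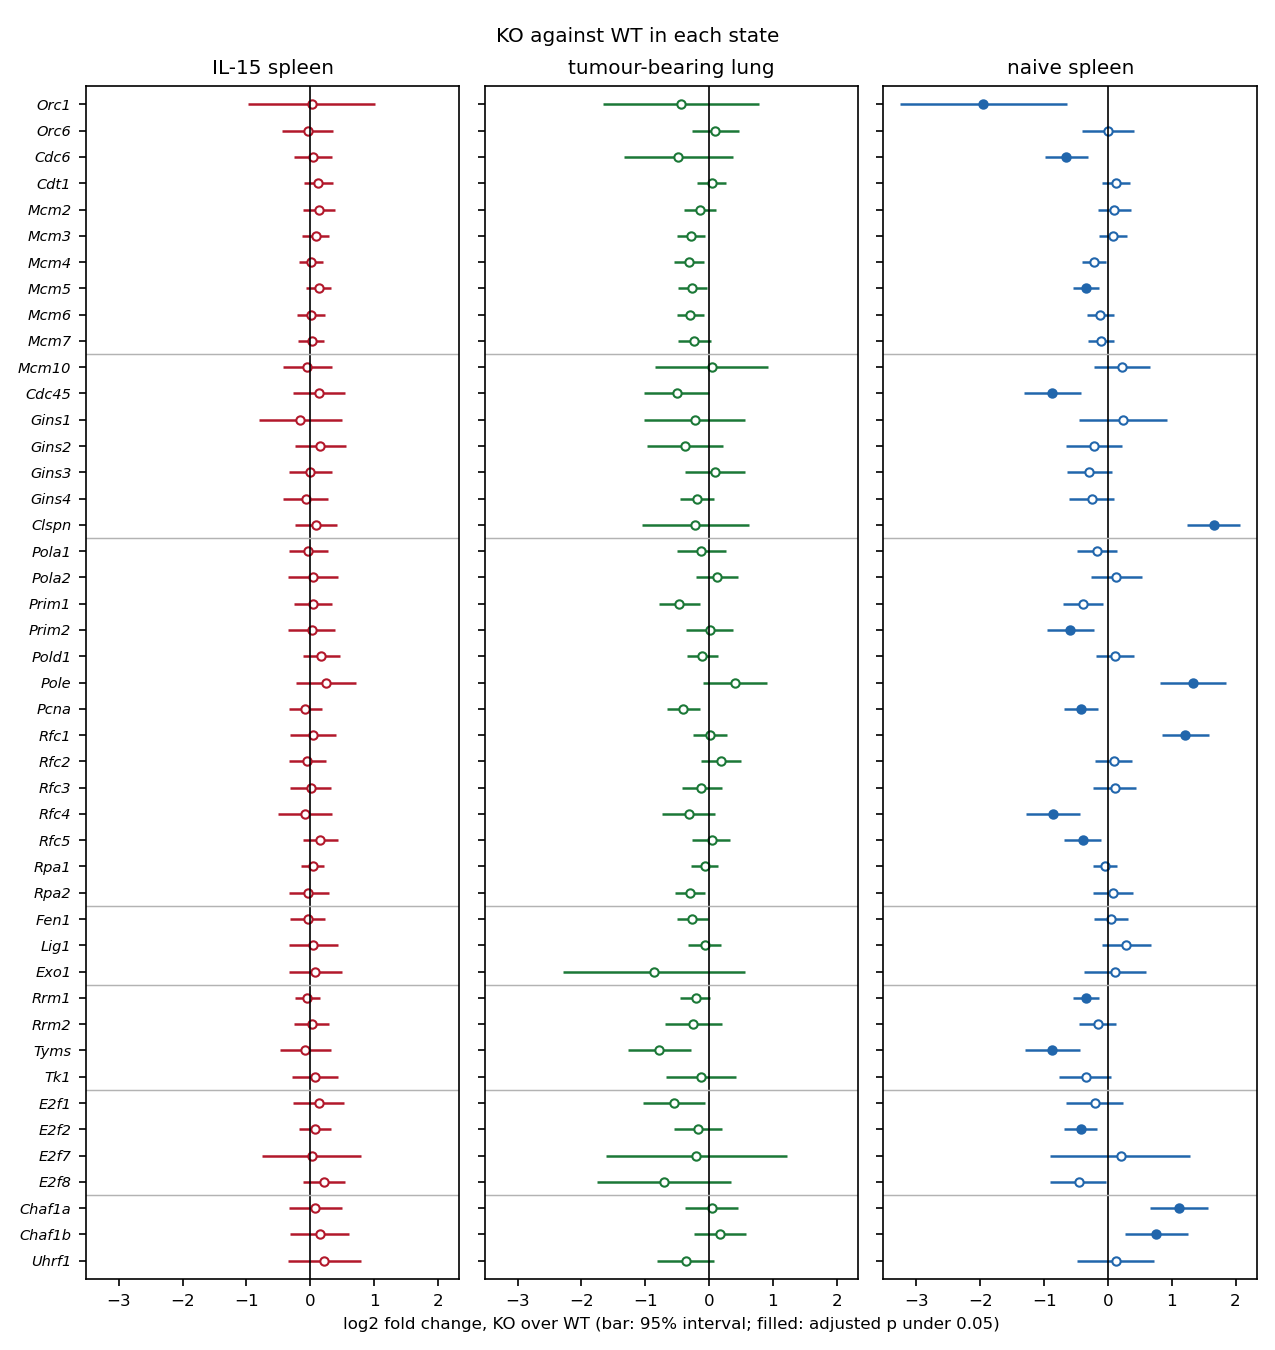
Log2 fold change of KO over WT for each of the 45 genes in IL-15-treated spleen, tumour-bearing lung and naive spleen, with 95% intervals from edgeR; filled points passed an adjusted p of 0.05. Points lie close to 0 under IL-15, lean left without passing in lung, and in naive spleen 5 pass to the right and 11 to the left.

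Of the 72 other replication genes, 7 were higher and 12 lower in naive KO. Timeless, a fork protection factor that works with claspin, and Ticrr were highest (1.38 and 1.22), and Asf1b, a histone chaperone, and Pole4, an accessory polymerase subunit, lowest (−0.93 and −0.72). Some markers of other cells also differed between naive KO and naive WT. T cell markers, 8 in all, summed to 379 to 561 CPM in naive KO against 289 to 379 CPM in naive WT. Most of that sum was Thy1 (means of 387 and 279 CPM). Cd3d (33.9 against 17.9) and Cd3e (5.88 against 1.78) were higher in naive KO, Lef1 was near equal (38.6 and 37.7), and Cd8b1 had 0 counts in both. Platelet and megakaryocyte markers summed to 32.9 to 52.9 CPM against 16.3 to 33.8 CPM, which overlap. The 8 B cell markers summed to 14.8 to 32.9 CPM in naive KO against 7.69 to 14.0 CPM in naive WT, with Pax5 at 0 counts in naive KO. The 7 endothelial and fibroblast markers summed to 96.3 to 124 CPM in naive KO against 53.3 to 75.0 CPM in naive WT, with Dcn and Pdgfra at 0 counts in both. Nearly all of that sum was Pecam1, with means of 106 CPM in naive KO and 64.6 CPM in naive WT. Cdh5, Kdr and Col1a1 had 0 counts in naive KO and 7, 18 and 4 counts in naive WT. Col1a2 averaged 1.08 CPM in naive KO and 0.136 CPM in naive WT. The sum of the 5 plasma cell markers ran the other way, at 74.3 to 89.1 CPM in naive KO against 118 to 133 CPM in naive WT. Most of that sum was Xbp1, with means of 77.8 CPM in naive KO and 122 CPM in naive WT. Jchain (2.05 against 0.485 CPM), Sdc1 (2.55 against 0.903) and Mzb1 (0.709 against 0.297) were higher in naive KO, and Tnfrsf17 had 0 counts in both. Their part in the naive difference was not tested.

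The difference of the KO effect between states was tested directly as an interaction. Between IL-15-treated and naive spleen, 2 of the 45 genes passed by edgeR, both with a lower KO effect under IL-15, and 0 passed the other way (4 lower and 3 higher by DESeq2, 4 and 11 at an unadjusted p under 0.05). Of all 13344 genes tested, 1.06% were lower and 0.472% higher by edgeR, and 1273 were lower and 918 higher at an unadjusted p under 0.05. Leaving out single libraries gave 1 to 3 lower and 0 to 4 higher, the 4 without IL-15 WT replicate 2. Clspn had an interaction of −1.57 ± 0.25 (edgeR adjusted p 0.00468), with a KO effect of 0.09 ± 0.16 under IL-15 and 1.66 ± 0.2 in naive cells. Rfc1 had −1.17 ± 0.25 (edgeR adjusted p 0.0215), with KO effects of 0.04 ± 0.17 and 1.21 ± 0.18, and its call was lost when any of 5 libraries was left out. Between lung and naive spleen the same 2 genes passed, at −1.94 ± 0.39 for Clspn and −1.23 ± 0.24 for Rfc1 (edgeR adjusted p 0.0123 and 0.0105), against 0.981% of the 14275 genes tested lower and 0.168% higher. There 0 members passed the other way by edgeR or DESeq2 (2 at an unadjusted p under 0.05), and the call of Clspn was lost in a fit of the compared groups alone. At that unadjusted threshold 6 members were lower, and of all genes tested 712 were higher and 1436 lower. Both interactions use the same naive libraries, so they are not independent of each other. Without the 2 shallowest libraries the lung interaction was −1.86 for Clspn and −1.18 for Rfc1, an alternative chosen after the data were seen. The 11 genes lower in naive KO did not pass either interaction, nor did Pole, Chaf1a and Chaf1b among the higher ones. For all of these a difference of the KO effect between states was not shown. Between IL-15 and naive spleen, Orc1 had 1.97 ± 0.78 (edgeR adjusted p 0.206) and Chaf1a had −1.04.

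**Figure D5:**
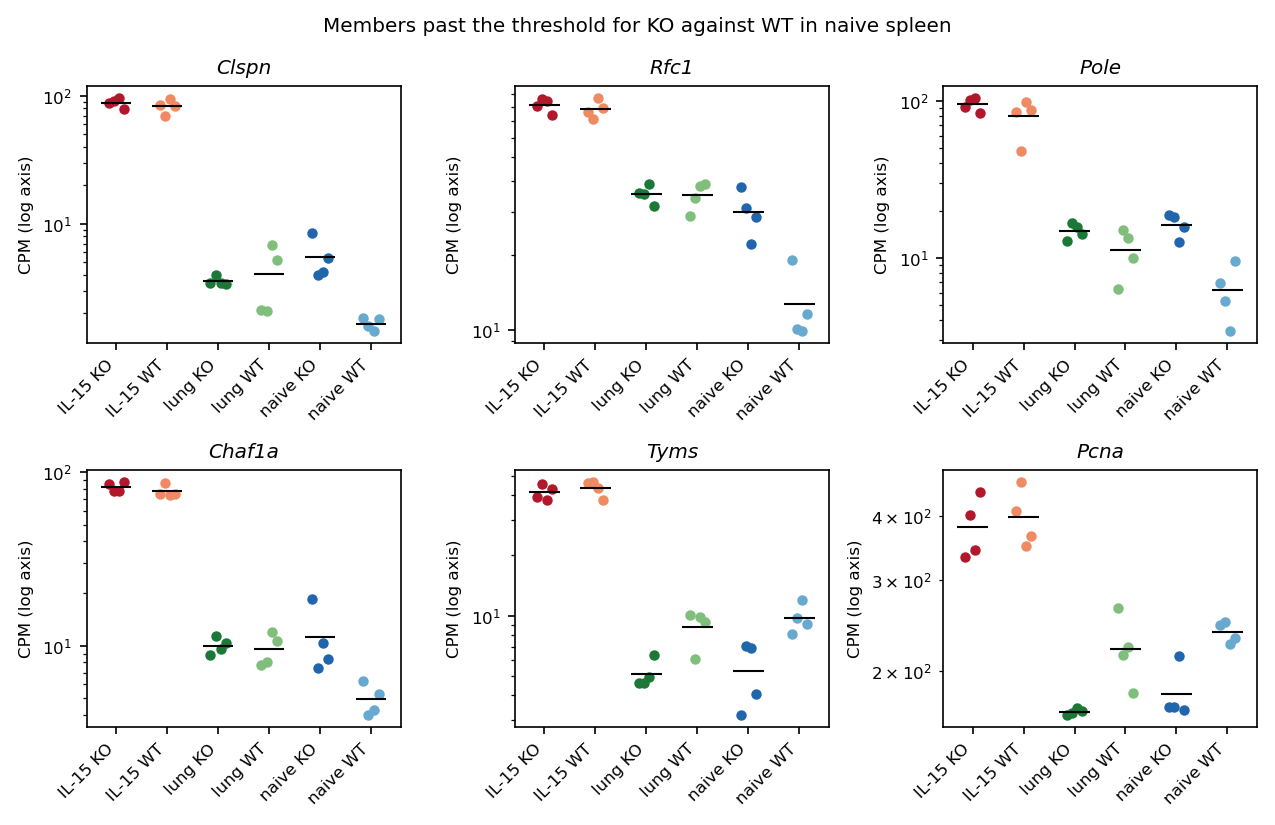
CPM (log axis) of 6 genes that passed for KO against WT in naive spleen, in each of the 24 libraries; points are libraries and bars group means. Clspn, Rfc1, Pole and Chaf1a are higher in naive KO than in naive WT and overlap between KO and WT under IL-15, while Tyms and Pcna are lower in naive KO. Of the 6, only Clspn and Rfc1 passed an interaction test of the KO effect between states.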

How the data were processed

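Poly(A) RNA of mouse NK cells was sequenced in 24 libraries, 6 groups of 4, with a directional library kit per the labels' protocols. The authors deposited expected counts per gene. The tools listed are RSEM 1.2.30, STAR 2.5.2a and cutadapt 1.9, with GRCm38, per the submitters' processing notes, and no source used here names the annotation release. Expected counts split reads between similar genes by estimate, and 5.47% of the deposited values were not whole (tolerance 1e-06).

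After rounding, expected counts were filtered with filterByExpr, scaled by TMM and tested by the quasi-likelihood F test of edgeR 4.0.16 under R 4.3.3, and p-values were adjusted after Benjamini and Hochberg over all genes tested, with 0.05 as the threshold. There were 11 comparisons: those within spleen came from a fit of its 16 libraries, those within lung from its 8, and those across organs from all 24. A standard error is the absolute log2 change over the square root of the F statistic. CPM values use library totals scaled by TMM, and CPM per kb divides them by union exon length from GENCODE M21. Library totals were 9.68 to 32.1 M counts, and differences in genes under about 1 CPM rest on few reads. The edgeR test was checked on simulated data for KO against WT in naive spleen and in lung. It was also checked for IL-15 against naive spleen in WT and for lung against naive spleen in KO. The other comparisons, both interactions among them, and the alternatives were not simulated.

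Members and lists were chosen with earlier results of these data known. Members named were, per comparison and role, the 2 largest and the smallest changes that passed, every member that passed where 10 or fewer did, those against the majority or not passing where 10 or fewer, and the 3 smallest p where 0 passed; other members are named as examples, some after their values were seen. The alternatives tried were a DESeq2 1.42.0 test, edgeR on DESeq2 size factors, no filter, a stricter filter (10 counts in 4 libraries), a length and GC offset (mgcv 1.9.3, genes with a mean count of at least 20), other sets of libraries in the fit, a block by replicate or by library number, and the omission of each library singly. The joint omission of the 2 shallowest libraries was chosen after seeing the data. E2F and CCAAT letters were searched in RefSeq promoter windows.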

Additional observations from a re-analysis of the deposited data

Results flagged for a closer look

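The KO effect differed between states for 2 genes by the interaction test. For Clspn the KO effect was lower under IL-15 than in naive spleen by −1.57 log2 units, and lower in lung than in naive spleen by −1.94. For Rfc1 the same differences were −1.17 and −1.23. Both pairs of interactions use the same naive libraries.

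Groups of 4 libraries were screened for a lone library by Dixon's ratio (its gap to the nearest other library over the range of the group) at the 95% level, for 20 of the genes and for the summed CPM of all 45. Of 126 such groups 9 held such a library; chance gives about 1 in 20. These libraries were E2f7 in naive WT replicate 4 (1.68 CPM), Clspn in lung KO replicate 2 (3.99), Pcna in naive KO replicate 3 (214), Mcm10 in naive KO replicate 4 (1.94), Chaf1a in IL-15 WT replicate 2 (86.2), Fen1 in lung WT replicate 3 (61.4), Exo1 in naive WT replicate 4 (2.24), Cdt1 in lung WT replicate 1 (88.4) and Gins4 in naive WT replicate 4 (45.4). Naive WT replicate 4 accounts for 3 of the 9.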

How the results depend on the processing

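Counts of members per direction kept within 1.5 times the reported value except as follows. With the length and GC offset, 2 members (Rpa1 and Rfc2) were lower under IL-15 than naive in KO and 2 in WT, 23 were lower in lung than naive in KO, 6 higher and 19 lower in WT, and 1 was higher in the IL-15 interaction. That offset moved the median of all genes to −0.2 (IL-15 against naive, KO), −0.18 (WT), −0.19 (lung against naive, KO) and −0.14 (WT). With the compared groups only, 1 member was higher in lung KO than naive KO, 1 lower in IL-15 KO than lung KO, 0 lower in IL-15 WT than lung WT, 2 lower in naive KO than naive WT, and 1 lower in the lung interaction. DESeq2 gave 1 lower in IL-15 KO than lung KO, and 3 higher and 4 lower in the IL-15 interaction. No filter gave 0 lower in IL-15 WT than lung WT. Libraries of the same replicate number in different groups had correlations of −0.19 to 0.247, 6 of 60 over 0.1. Some IL-15-treated and naive libraries of a genotype also share a number in their library names. The 6 such pairs had correlations of −0.054 to 0.2. These values cannot show whether samples were paired. The replicate block gave 0 lower in IL-15 WT than lung WT, and 4 higher and 10 lower in naive KO than naive WT. The cause of these shifts was not tested.

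Leaving out 1 library at a time gave 41 to 41 members higher and 0 to 1 lower for IL-15 against naive in WT (1 without IL-15 WT replicate 2), 0 to 1 lower for IL-15 against lung in WT, 7 to 10 lower for naive KO against WT (7 without naive KO replicate 4), and 0 to 4 higher and 1 to 3 lower in the IL-15 interaction.

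Signs turned only where the reported value was near 0 or under the offset. Rpa1 (IL-15 against naive, KO) was 0.04 with DESeq2, its size factors or no filter, 0.02 with the compared groups only or a library number block, 0.07 with all 24 libraries −0.23 with the offset and −0.04 to 0.03 with 1 library left out; in WT it was 0.0 with all 24. Rpa2 in the same KO comparison was −0.06 with the offset. Gins4 there was −0.27 with the offset and −0.2 to 0.08 with 1 library left out (0.08 without naive KO replicate 1). Rfc2 in WT was 0.01 with all 24 libraries and −0.2 to 0.0 with 1 left out. Against lung, Cdt1 was 0.21 in KO and 0.13 in WT with the offset, Rpa2 in KO ranged from −0.12 to 0.0 and Rfc2 in WT from −0.23 to 0.05. For lung against naive in WT, the offset gave E2f1 −0.1 and Pold1 −0.63. Of 270 group levels, 0 moved by as much as 1 SD between libraries when scaled by DESeq2 size factors. Levels near 0 CPM, as for Orc1 and E2f7 in naive cells, limit the precision of their fold changes.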
